A study of Homo sapiens with 6 samples.

Results

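A set of 10 genes of the epithelial-to-mesenchymal transition (EMT) was followed in RD cells after knockdown of TAK1. They were taken by gene symbol from the 58735 rows of the count table and comprise the transcription factors SNAI1, SNAI2, TWIST1, TWIST2, ZEB1 and ZEB2, the intermediate filament gene VIM and the cadherins CDH1, CDH2 and CDH11. All 10 were found, and 8 of them had enough counts to be tested among 15935 genes. TWIST2 was under the filter on low counts, and CDH1 had no counts at all.

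RD is an established human line of embryonal rhabdomyosarcoma (ERMS), a tumour with features of skeletal muscle. In 3 libraries the cells had been transduced with lentivirus carrying a scrambled shRNA, and in the other 3 with lentivirus carrying a TAK1 shRNA. TAK1 is a kinase encoded by MAP3K7 that relays signals from TGF-β and inflammatory receptors, and the comparison asks how EMT genes differ when it is depleted. Both groups carry a lentiviral shRNA, and the groups come from a single line and a single TAK1 hairpin. The libraries held 28839898 to 34469323 counts each, and no pair of libraries of a group was so alike that it could be a single library deposited again. The sources used here do not say whether the replicates were separate cultures, so p-values measure only the spread between these samples.

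EMT is the switch by which epithelial cells loosen their junctions and become motile. SNAI, TWIST and ZEB proteins bind E-box sequences and repress epithelial genes, above all CDH1, which encodes E-cadherin. In the cadherin switch E-cadherin gives way to N-cadherin, the product of CDH2, and vimentin, the product of VIM, becomes abundant. ZEB1 and ZEB2 are held down in epithelial cells by microRNAs of the miR-200 family, which the ZEB proteins repress in turn. Rhabdomyosarcoma is of mesenchymal origin, and its cells can express these genes without an epithelial starting state.

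The miR-200 family is shown because it separates the ZEB factors from the other members by sequence. The mature RNAs are given 5′ to 3′ from RefSeq (GRCh38.p14) with the seed, bases 2 to 8, in capitals. They form a group of 3 and a group of 2 by shared seed.
hsa-miR-200b-3p: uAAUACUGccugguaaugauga
hsa-miR-200c-3p: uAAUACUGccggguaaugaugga
hsa-miR-429: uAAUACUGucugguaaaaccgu
hsa-miR-200a-3p: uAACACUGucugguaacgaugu
hsa-miR-141-3p: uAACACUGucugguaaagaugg

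The complement of the first seed is CAGTATT and that of the second is CAGTGTT. Only the transcript's own strand was searched, and the motifs do not overlap each other. Taking a gene's longest 3′ UTR (GENCODE 44, GRCh38), ZEB1 held 6 matches of CAGTATT and 3 of CAGTGTT, and ZEB2 held 5 and 4. SNAI2 and CDH11 each held 1 match of CAGTATT, and the other 6 members held none of either. Of 19226 genes with a 3′ UTR, 16.9% held CAGTATT at least once and 0.957% held it 3 times or more, and the shares for CAGTGTT were 19.3% and 1.11%. The first match of each kind after the stop codon is printed below with its surroundings, the match in capitals, on the transcript's strand. The 3′ UTRs searched ran from 322 bases for VIM to 5370 for ZEB2, with 2549 for ZEB1 and 4338 for CDH11. Neither the counts of matches nor the shares were adjusted for length. A match is a description of letters and not a measured site.
ZEB1 at chr10:31527618-31527640, plus strand: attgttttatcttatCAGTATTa
ZEB1 at chr10:31528031-31528053, plus strand: caaaatcatcagaatCAGTGTTt
ZEB2 at chr2:144389052-144389074, minus strand: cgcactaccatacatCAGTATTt
ZEB2 at chr2:144389236-144389258, minus strand: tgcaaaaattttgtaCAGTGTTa

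The rows of the 5 miR-200 genes, of MIR200CHG, the host transcript of MIR200C and MIR141, and of MIR205 and MIR205HG had 0 counts in all 6 libraries. These are counts of poly(A) RNA per gene and do not measure mature microRNAs.

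The knockdown itself was visible in the target. Levels are given as CPM, which are counts per 1000000 counts of the library after scaling by the trimmed mean of M-values. MAP3K7 read 77.9, 76.5 and 77.6 CPM in the scrambled libraries and 30.5, 33.6 and 29.9 in the TAK1 shRNA libraries. This is a log2 fold change of -1.30 (SE 0.062, edgeR adjusted p = 4.45e-14). A gene was called when the edgeR adjusted p was under 0.05 and the absolute log2 fold change was at least 0.25, and 23.1% of the genes tested were called. Fold changes are TAK1 shRNA against scrambled throughout. With library size alone in place of the trimmed mean, 62.9% of the calls were higher in place of 51.0%.

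Among the 8 members tested, ZEB2 rose and VIM fell. The background is 11.8% of all genes called up and 11.3% called down, so 1 of 8 in each direction is near what the whole table gives. By the adjusted p alone, without the fold threshold, 1 member was higher and 4 were lower (VIM, CDH2, SNAI2 and ZEB1), against 16.1% and 17.2% of all genes and 33.3% in both directions together. The same 5 were the members whose groups did not overlap, against 21.6% of all genes higher without overlap, 22.2% lower and 43.9% in either direction. The median log2 fold change was -0.16 over the 8 members and 0.018 over all genes tested. In bulk RNA, fewer cells expressing a gene and less RNA per cell cannot be told apart.

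**Figure D1:**
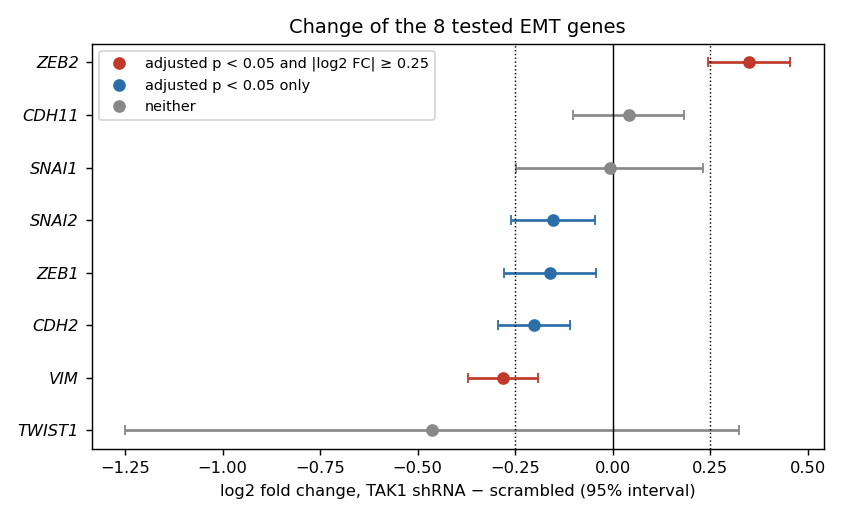
Log2 fold change, TAK1 shRNA against scrambled, with its 95% interval for the 8 members tested, each fitted over 3 libraries a group. ZEB2 at 0.35 and VIM at -0.28 lie past the 0.25 threshold and pass the adjusted p, and the interval of TWIST1 runs from -1.25 to 0.32.

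The ZEB factors are large zinc-finger proteins that recruit the corepressor CtBP. ZEB2 (ENSG00000169554, chr2:144364364-144521057, minus strand) read 121, 115 and 120 CPM in the scrambled libraries and 142, 152 and 159 CPM in the TAK1 shRNA libraries. Every TAK1 shRNA library was above every scrambled library. The mean went from 119 ± 3.32 to 151 ± 8.66 CPM (SD, n = 3 a group), a log2 fold change of 0.35 (SE 0.051, edgeR adjusted p = 6.44e-06). This difference is larger than the spread between replicates, and the call was made under all 14 alternatives of test, scaling, filter, pairing and libraries, with log2 fold changes of 0.30 to 0.40.

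ZEB1 (ENSG00000148516, chr10:31318495-31529814, plus strand) differed in the other direction and by less. It read 65.8, 65.2 and 64.5 CPM in the scrambled libraries and 54.8, 59.3 and 60.7 CPM in the TAK1 shRNA libraries, with no overlap. The log2 fold change was -0.16 (SE 0.057, edgeR adjusted p = 0.0339), which is under the fold threshold. The adjusted p was above 0.05 without scrambled replicate 1 (0.0974), 2 (0.104) or 3 (0.0771) or TAK1 shRNA replicate 1 (0.111), and under upper-quartile scaling (0.0579) and library size alone (0.139).

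The balance between the ZEB paralogs does not depend on how libraries are scaled, because it is a ratio within each library. There were 0.549 ZEB1 counts per ZEB2 count with scrambled shRNA and 0.385 with TAK1 shRNA. The log2 ratio was -0.88, -0.82 and -0.90 in the scrambled libraries and -1.37, -1.36 and -1.39 in the TAK1 shRNA libraries. All 3 TAK1 shRNA libraries lay below all 3 scrambled libraries, and the mean difference was -0.51. The exact two-sided permutation p was 0.1, the smallest that 3 against 3 can give, and 0.167 after Benjamini-Hochberg adjustment over the 5 ratios tested.

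**Figure D2:**
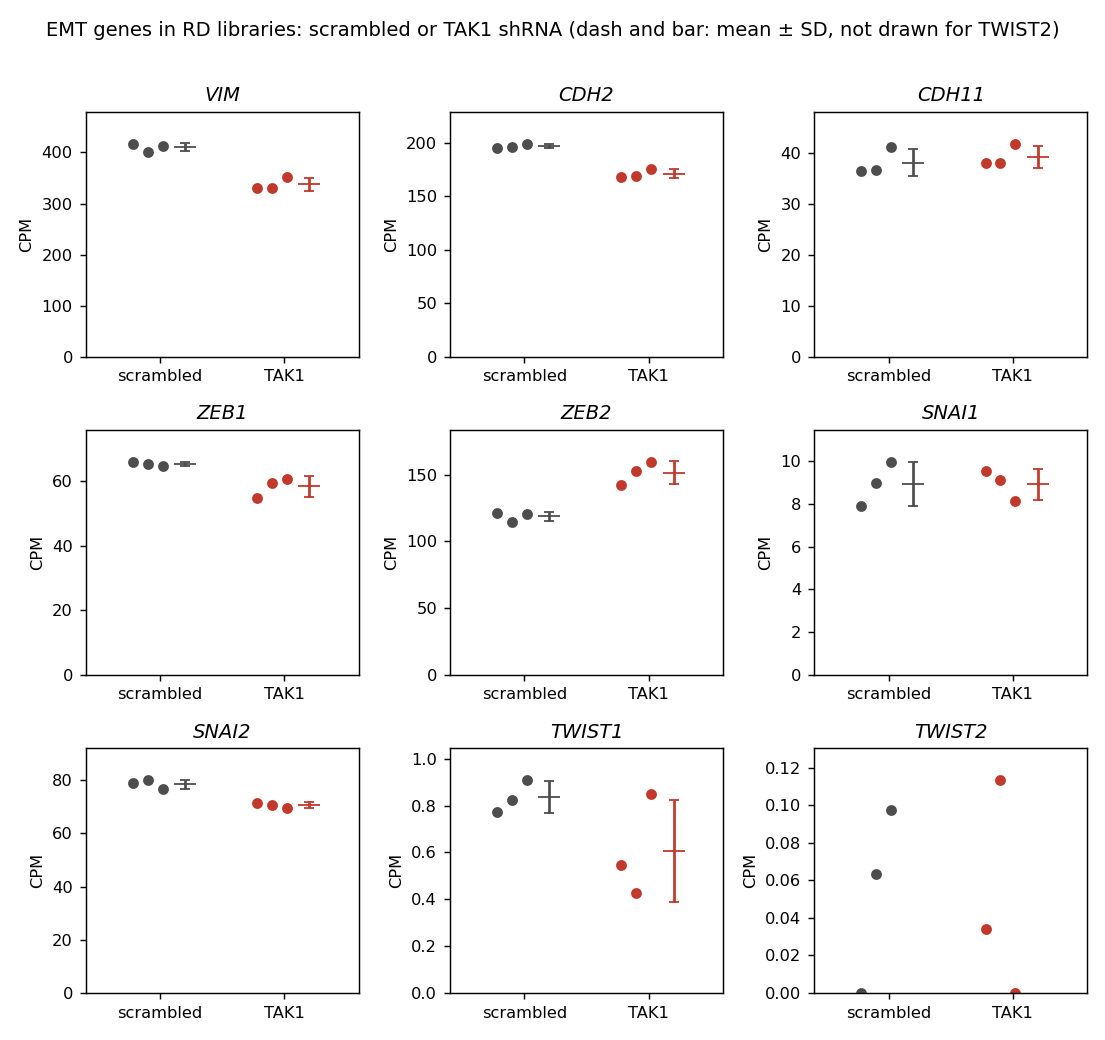
Normalized counts (CPM) of the 9 members with any count, 1 panel each, with a point per library and the mean ± SD (n = 3) beside it except for TWIST2, and each axis starting at 0. The groups are apart in VIM, CDH2, ZEB1, ZEB2 and SNAI2 and overlap in CDH11, SNAI1, TWIST1 and TWIST2, and CDH1 has no panel because it was at 0.

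The genes whose pattern over the 6 libraries was most like that of ZEB2 were MED20, with a Pearson r of 0.999 on log2 CPM, SIX4 (0.996), GPR20 (0.995), MAGI2-AS3 (0.995) and LINC01128 (0.995). Of the 15934 other genes tested, 366 had an r over 0.95. The libraries share 2 groups, so any gene that differs between the groups takes part of this likeness from them. MED20 had a log2 fold change of only 0.10 (SE 0.062, edgeR adjusted p = 0.21), so a difference was not detected in it. SIX4, a homeobox factor of the muscle lineage, was at 108 ± 0.918 CPM with scrambled and 126 ± 4.71 with TAK1 shRNA. Its log2 fold change of 0.23 (edgeR adjusted p = 0.000522) was under the fold threshold. GPR20, MAGI2-AS3 and LINC01128 were called up. GPR20 was low, at 0.763 ± 0.112 and 1.99 ± 0.548 CPM (log2 fold change 1.39, edgeR adjusted p = 0.000679). MAGI2-AS3 was at 0.35 (edgeR adjusted p = 0.00534) and LINC01128 at 0.33 (edgeR adjusted p = 0.000896).

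The SNAI factors are compact zinc-finger repressors, and the protein of SNAI1 is short-lived. SNAI1 (ENSG00000124216, chr20:49982980-49988886, plus strand) read 7.91, 8.99 and 9.96 CPM in the scrambled libraries and 9.54, 9.12 and 8.12 CPM in the TAK1 shRNA libraries. The groups overlapped across their ranges. It differed by a log2 fold change of -0.0071 (SE 0.116, edgeR adjusted p = 0.973), with a 95% interval of -0.25 to 0.23. That interval reaches about as far as the fold threshold on either side of 0.

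SNAI2, which encodes Slug, was at 79.0, 80.0 and 76.6 CPM in the scrambled libraries and 71.6, 70.9 and 69.6 CPM in the TAK1 shRNA libraries. No library of one group reached the other. The log2 fold change was -0.15 (SE 0.052, edgeR adjusted p = 0.0272), under the fold threshold, and the adjusted p was 0.0799 without scrambled replicate 1, 0.131 without scrambled replicate 2 and 0.13 with library size alone. The ratio of SNAI2 to SNAI1 counts was 8.74 with scrambled and 7.94 with TAK1 shRNA, with overlapping libraries (exact permutation p = 0.3, adjusted 0.375).

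The TWIST factors are basic helix-loop-helix proteins, and both were scarce. TWIST1 had 22, 26 and 28 counts in the scrambled libraries and 16, 15 and 28 in the TAK1 shRNA libraries. TAK1 shRNA replicate 3 equalled the highest scrambled library in counts, so the groups overlapped. A log2 fold change of -0.46 had an SE of 0.38 (edgeR adjusted p = 0.39), and a difference was not detectable at this depth. TWIST2 had 0, 2 and 3 counts against 1, 4 and 0, which allows no comparison.

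The cadherins join neighbouring cells through calcium-dependent contacts. CDH1 (ENSG00000039068, chr16:68737292-68835537, plus strand) had 0 of 188366797 counts over the 6 libraries. With 3 counts taken as the limit that 0 allows, its level was at most 0.0331 CPM over the scrambled group and 0.0307 CPM over the TAK1 shRNA group, for counting error only. No E-cadherin message was detected in either group at this depth.

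N-cadherin was abundant instead. CDH2 (ENSG00000170558, chr18:27932879-28177946, minus strand) read 195, 196 and 199 CPM in the scrambled libraries and 168, 169 and 176 CPM in the TAK1 shRNA libraries, without overlap. The log2 fold change was -0.20 (SE 0.045, edgeR adjusted p = 0.00104), under the fold threshold, and the adjusted p stayed under 0.05 in all 14 alternatives. Per length of exon, CDH2 was at least 4213-fold higher than CDH1 with scrambled and at least 3938-fold higher with TAK1 shRNA, with 3 counts of CDH1 over each group as the floor.

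CDH11 (ENSG00000140937, chr16:64943753-65126112, minus strand) encodes OB-cadherin, a cadherin of mesenchymal cells. It read 36.4, 36.7 and 41.2 CPM in the scrambled libraries and 37.9, 38.0 and 41.7 CPM in the TAK1 shRNA libraries. The ranges overlapped, and replicate 3 was the highest library in both groups. It had a log2 fold change of 0.041 (SE 0.069, edgeR adjusted p = 0.698), with a 95% interval of -0.10 to 0.18, and it was -0.016 without TAK1 shRNA replicate 3.

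CDH11 counts per CDH2 count went from 0.194 to 0.229. The log2 ratio was higher in all 3 TAK1 shRNA libraries, at -2.15, -2.15 and -2.08, than in the scrambled libraries, at -2.42, -2.42 and -2.27. The mean difference was 0.24, with an exact permutation p of 0.1, the smallest possible, and 0.167 after adjustment over the 5 ratios.

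**Figure D3:**
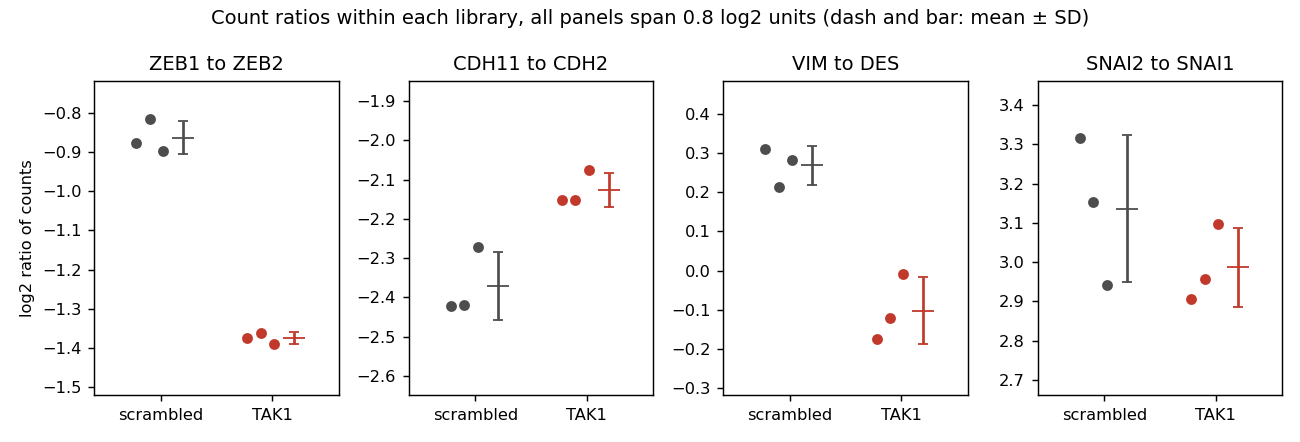
Log2 ratio of counts within each library for ZEB1 to ZEB2, CDH11 to CDH2, VIM to DES and SNAI2 to SNAI1, with a point per library and the mean ± SD (n = 3). Each axis spans the same 0.8 log2 units and does not start at 0, and only SNAI2 to SNAI1 overlaps between the groups.

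Vimentin is the filament protein of mesenchymal cells and of immature muscle. VIM (ENSG00000026025, chr10:17228241-17237593, plus strand) read 416, 401 and 413 CPM in the scrambled libraries and 331, 330 and 352 CPM in the TAK1 shRNA libraries. All TAK1 shRNA libraries were below all scrambled libraries, and the mean fell from 410 ± 8.11 to 337 ± 12.3 CPM (SD, n = 3 a group). The log2 fold change was -0.28 (SE 0.044, edgeR adjusted p = 1.63e-05), just past the fold threshold. With library size alone it was -0.23, under that threshold, with an adjusted p of 0.000117.

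Desmin, the filament protein that muscle cells build as they differentiate, was at 340 ± 5.05 CPM with scrambled and 362 ± 10.2 with TAK1 shRNA (DES, log2 fold change 0.089, edgeR adjusted p = 0.119). VIM counts exceeded DES counts in each scrambled library, with log2 ratios of 0.31, 0.21 and 0.28, and fell short of them in each TAK1 shRNA library, with -0.17, -0.12 and -0.0093. In counts of VIM per count of DES this is 1.20 against 0.933, which is not a comparison per length. The mean log2 difference was -0.37 (exact permutation p = 0.1, the smallest possible, adjusted 0.167). Of the 10 intermediate filament genes tested besides VIM, DES among them, 4 were called down and 0 up by edgeR. Over all genes tested, 11.3% were called down and 11.8% up. By the adjusted p alone, 5 of the 10 were lower and 1 higher, beside 17.2% and 16.1% of all genes. The 4 called down included NEFL, a neurofilament gene, at -0.62, and SYNM, which encodes the muscle filament protein synemin, at -0.48. LMNB1, a nuclear lamin gene, was at -0.33. NEFM, another neurofilament gene, was at -1.20 from 122 counts in all (edgeR adjusted p = 0.0345). The NEFM call was lost when any library but TAK1 shRNA replicate 2 was left out, with adjusted p of 0.059 to 0.146 in edgeR, and NEFM was not tested with at least 10 counts required in every library.

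Levels of different genes can be compared only per length. Here the counts were divided by kilobases of the union of a gene's exons (RPKM). With scrambled shRNA the order was VIM at 79.2, SNAI2 at 23.9, CDH2 at 22.9, ZEB1 at 7.53, SNAI1 at 5.25, ZEB2 at 4.54, CDH11 at 2.87, TWIST1 at 0.419, TWIST2 at 0.0252 and CDH1 at 0. Neighbours in this order did not overlap over the 3 libraries except TWIST2 and CDH1.

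With TAK1 shRNA, ZEB2 at 5.78 and SNAI1 at 5.23 RPKM changed places, and their libraries overlapped. SNAI2 was the most abundant of the 6 transcription factors per length in both groups. The middle of the order rests on the annotation, since 3 of the 9 detected members (VIM, TWIST1 and TWIST2) kept their rank when the longest transcript stood for the gene. ZEB2 has 26151 bases of exon in union and 9583 in its longest transcript, and with the latter it was above ZEB1, at 12.4 against 10.4 RPKM with scrambled shRNA.

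**Figure D4:**
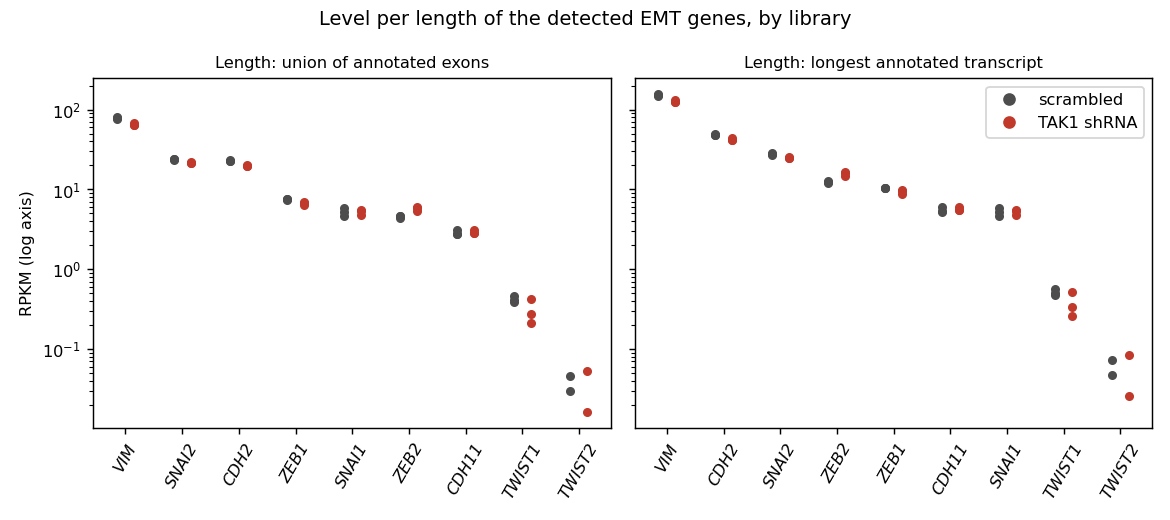
Level per length (RPKM, union of exons in the left panel, log axis) of the members in each library, scrambled and TAK1 shRNA, with the longest transcript as the length in the right panel. In union VIM is highest at 79.2 and 65.2 on average and TWIST2 lowest, and CDH1 and the libraries with 0 TWIST2 counts cannot be drawn on a log axis.

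Whether counting used strand is not given in the sources used here, and exons of ZEB1, ZEB2, VIM, SNAI2, TWIST1, CDH1 and CDH2 overlap a gene on the opposite strand. Exons of CDH11 overlap a gene on its own strand. How reads in shared exons were assigned is not given either. The named antisense rows held few counts. ZEB1-AS1 was at 2.85 ± 0.258 and 3.28 ± 0.115 CPM (log2 fold change 0.20, edgeR adjusted p = 0.43). ZEB2-AS1 had 31 counts over all libraries beside 25552 of ZEB2, and VIM-AS1 had 92 beside 70126 of VIM. The ZEB2-AS1 counts were 2, 5 and 1 with scrambled and 7, 7 and 9 with TAK1 shRNA. These did not overlap but were under the filter, so the row was not tested. The pseudogene rows ZEB2P1 and SNAI1P1 held 20 and 4 counts.

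Of 12 tested other transcription factors with a known part in EMT, 4 were called down and 1 up, with a median log2 fold change of -0.064. The shares over all genes tested were 11.3% down and 11.8% up. SOX9, a factor of neural crest and cartilage, fell from 26.4 ± 0.612 to 11.1 ± 0.612 CPM (log2 fold change -1.25, edgeR adjusted p = 1.64e-11). MSX2, a homeobox factor, fell by 0.74 on the log2 scale, and the E proteins TCF4 and TCF12, partners of TWIST and of the myogenic factors, fell by 0.48 and 0.35. TCF3, another E protein of the list, went the other way, from 468 ± 20.5 to 521 ± 22.7 CPM without overlap. Its log2 fold change of 0.15 (edgeR adjusted p = 0.0101) was under the fold threshold. By the adjusted p alone, 4 of the 12 were lower and 3 higher, beside 17.2% and 16.1% of all genes. FOXC1 was called up at 0.28 (edgeR adjusted p = 0.0303), a call lost without scrambled replicate 2 or 3, without TAK1 shRNA replicate 1 or 3, and with no filter on counts. FOXC2, FOXQ1 and TBXT were at 0.

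Of 17 other genes of the cadherin family, 7 were at 0 and 6 were tested, with 1 called up, 0 called down and a median of 0.14. All genes tested gave 11.8% up and 11.3% down. CDH7 rose from 1.40 ± 0.0737 to 3.58 ± 0.592 CPM (log2 fold change 1.35, edgeR adjusted p = 1.63e-05). CDH15, the M-cadherin of muscle, was at 232 ± 4.33 and 273 ± 24.0 CPM (0.23, edgeR adjusted p = 0.00116), under the fold threshold except with library size alone (0.28) or without TAK1 shRNA replicate 3 (0.27). CDH24 was lower, at 25.5 ± 1.36 and 21.7 ± 3.13 CPM without overlap (-0.24, edgeR adjusted p = 0.0433). It was under the fold threshold and was called in 3 of the 14 alternatives. By the adjusted p alone, 2 of the 6 were higher and 1 lower, beside 16.1% and 17.2% of all genes.

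The catenins tie cadherins to actin, and 1 of 4 tested was called, beside 23.1% of all genes in either direction. CTNNA1, α-catenin, fell from 273 ± 3.99 to 220 ± 10.9 CPM (log2 fold change -0.31, edgeR adjusted p = 9.46e-06). CTNND1, p120-catenin, was lower by the adjusted p alone (-0.20, edgeR adjusted p = 0.000687).

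Most epithelial genes were close to absent in both groups. Of 30, 3 were at 0 (KRT14, KRT19 and OVOL1), 19 more were under the filter and 8 were tested. Over all 6 libraries EPCAM had 46 counts, CLDN4 36, GRHL2 4, ESRP1 2 and KRT5 1. The summed level of the list was 69.2 to 74.8 CPM in the scrambled libraries and 42.0 to 44.4 in the TAK1 shRNA libraries, and most of it was KRT18.

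KRT18, a keratin of simple epithelia that many other cells also make, fell from 56.1 ± 3.61 to 26.4 ± 1.095 CPM (log2 fold change -1.09, edgeR adjusted p = 5.2e-12). TJP3, a tight junction scaffold, rose from 0.563 ± 0.288 to 2.31 ± 0.188 CPM (2.01, edgeR adjusted p = 1.97e-05), and it was not tested with at least 10 counts required in every library, since scrambled replicate 1 had 8. They were the single genes called in each direction, beside 11.8% of all genes called up and 11.3% down. The list median was -0.19.

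Mesenchymal genes moved both ways, with 5 of 25 tested called up, 4 called down and a median of -0.035. All genes tested gave 11.8% up and 11.3% down. FN1, fibronectin, rose from 1005 ± 14.3 to 1382 ± 98.5 CPM (log2 fold change 0.46, edgeR adjusted p = 1.73e-08). ITGB1, the β1 integrin, fell from 290 ± 4.48 to 116 ± 7.66 CPM (-1.32, edgeR adjusted p = 1.08e-15). TAGLN, an actin-binding protein, was low and was called up at 0.75, and COL3A1, COL5A1 and MMP2 of the matrix rose while LOX and FSTL1 fell. MMP2 was at 0.24 and not called without TAK1 shRNA replicate 3, and FSTL1 was at -0.22 and not called with library size alone.

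**Figure D5:**
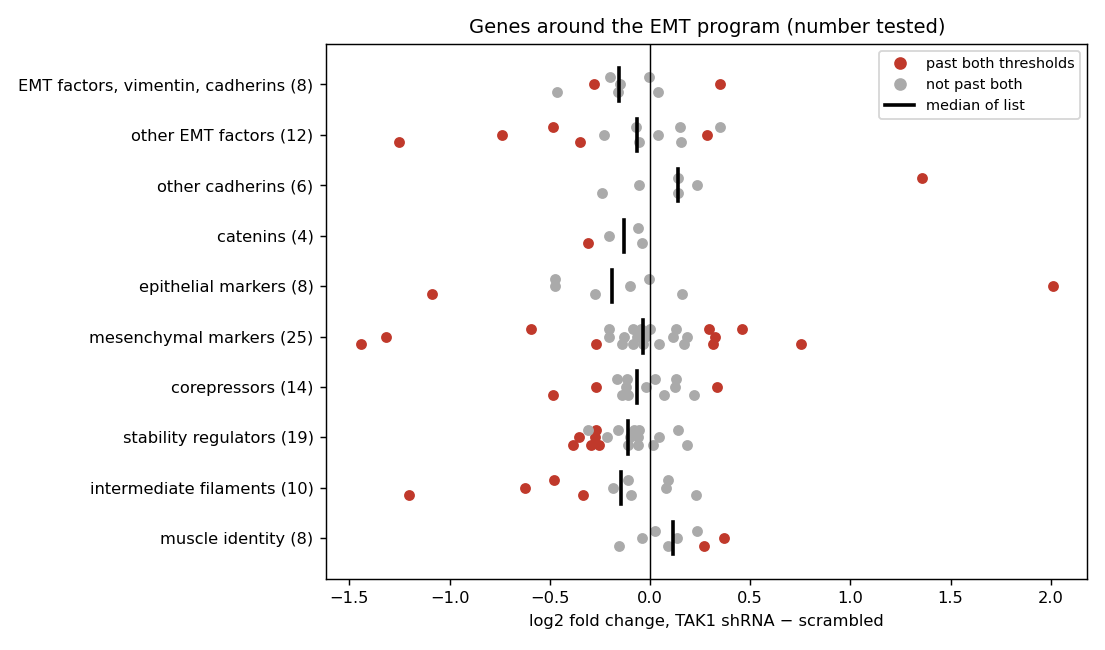
Log2 fold changes, TAK1 shRNA against scrambled, of the tested genes in the members and the related lists, with a point per gene and a mark at the median of each list. The median of the members is -0.16 and that of the mesenchymal genes -0.035, beside 0.018 over all genes tested.

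The markers of the cell line were present. MYOD1 and MYOG, the myogenic factors, rose by log2 fold changes of 0.37 and 0.27, and the other 6 muscle genes tested were not called, while MYF5 had 0 counts and MYF6 had 2. The MYOG call was lost without scrambled replicate 1 (0.24) or TAK1 shRNA replicate 1 (0.24). Beside the 2 of 8 muscle genes called up, the share over all genes tested was 11.8%. By the adjusted p alone, 3 of the 8 were higher and 1 lower, beside 16.1% and 17.2% of all genes. The lower gene was FGFR4, from 384 ± 9.68 to 344 ± 24.1 CPM without overlap (log2 fold change -0.16, edgeR adjusted p = 0.0143). Markers of other cells that could be present were low. The 5 leukocyte genes summed to 0.195 to 0.445 CPM in the scrambled libraries and 0.171 to 0.396 in the TAK1 shRNA libraries, with CD3E at 0. The 5 endothelial genes summed to 2.98 to 3.65 and 1.78 to 2.75 CPM, with CDH5 and KDR at 0, PECAM1 at 14 counts in all and VWF at 2. Nearly all of that sum was TEK, an angiopoietin receptor, at 3.11 ± 0.471 and 2.20 ± 0.508 CPM without overlap (log2 fold change -0.49, edgeR adjusted p = 0.0757). TEK passed both thresholds without TAK1 shRNA replicate 2 (-0.66, edgeR adjusted p = 0.0265) and with the replicate number as a block (-0.50, edgeR adjusted p = 0.0455). Their part in the results was not tested.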

How the data were processed

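The deposited table held raw counts per gene for all 6 libraries (poly(A) mRNA, paired-end reads). The authors called bases with CASAVA, removed adapters and low-quality reads and aligned with STAR to GRCh38. The counting tool, annotation and strand setting are not given in the sources used here. From the counts, edgeR 4.0.16 (R 4.3.3) was run on all 6 libraries with filterByExpr, TMM factors and the quasi-likelihood test, with Benjamini-Hochberg adjustment over the 15935 genes tested, which held at least 99.9% of the counts of each library. A call used the study's thresholds of 0.05 on the adjusted p and 0.25 on the size of the log2 fold change. Ratios had 0.5 counts added. Exon lengths and positions came from GENCODE 44, and microRNA sequences from RefSeq. The biological coefficient of variation was 5.67%.

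The members and lists were chosen with earlier results of these data known. Named genes were the members, MAP3K7, the 3 largest called changes per list above a mean of 1 CPM, defining genes at or near 0 and the 5 genes most like ZEB2. Further names (FOXC1, CDH15, CTNND1, DES, COL3A1, COL5A1, MMP2, LOX, FSTL1, NEFM, TEK, the antisense and pseudogene rows and small counts of 5 or fewer) were chosen after their values were seen. The same holds for TCF3, CDH24 and FGFR4. Alternatives were DESeq2 1.42.0, limma 3.58.1 voom, other scalings, filters and thresholds, a replicate block and each library left out. The procedure was checked on simulated data. Some genes that these rules would name are not reported here. Promoter and protein sequences of the members were not used here.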

Additional observations from a re-analysis of the deposited data

How the results depend on the processing

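The members called were 1 up (ZEB2) and 1 down (VIM) under DESeq2, limma voom, RLE and upper-quartile scaling, both filters and each library left out, where the lowest and highest counts were 1 and 1 in both directions. With edgeR on library size alone 0 members were called down, with 3 at an unadjusted p under 0.05 in both directions together, since VIM was at -0.23. At a fold threshold of 0.5, 0 members were called up and 0 down by edgeR, DESeq2 and voom, with 5 at an unadjusted p under 0.05 in edgeR, and all genes gave 735 up and 680 down and the related lists 3 and 8, against 1879, 1805, 11 and 22. With no fold threshold 4 members were down, 2734 genes down and 18 list genes up. Leaving out each library gave 1582 to 1810 genes up and 1675 to 1931 down, and 8 to 12 list genes up and 20 to 24 down. The log2 fold change of SNAI1, -0.087 to 0.075 over the libraries left out, turned positive with upper-quartile scaling (0.0099) and library size alone (0.041) and without scrambled replicate 3 (0.075) or TAK1 shRNA replicate 3 (0.046), and that of CDH11, -0.016 to 0.10 over the libraries left out, turned negative without TAK1 shRNA replicate 3 (-0.016). The ratio of TWIST2 to TWIST1, 0.28 on the log2 scale from 10 TWIST2 counts, ranged from -0.67 to 1.35 over the libraries left out, and ZEB1 to ZEB2 from -0.53 to -0.49. Per length, 3 detected members kept their rank with the longest transcript. The causes of these shifts were not tested. Within single lists, library size alone gave 2 stability regulators down in place of 6, 1 corepressor down and 2 up in place of 2 and 1, 2 other cadherins up in place of 1 and 1 intermediate filament gene up in place of 0, and with at least 10 counts in every library 0 epithelial genes were up in place of 1. Over the libraries left out, 4 to 8 stability regulators, 3 to 5 intermediate filament genes and 0 to 1 endothelial genes were down. At the 0.5 threshold the counts down were 2 of the other EMT factors, 2 intermediate filament genes, 0 catenins, 0 corepressors and 0 stability regulators, against 4, 4, 1, 2 and 6, and mesenchymal genes up were 1 against 5. Whether the replicate numbers pair the libraries is not settled. Same-numbered libraries correlated at 0.016 to 0.037 in their deviations, under the 0.1 set as a limit, which is not a test. Of 6 libraries, 5 correlated best with their own number. In edgeR the replicate block gave an SE of 0.043 in place of 0.051 for ZEB2 and 0.036 in place of 0.044 for VIM. For TWIST1 it was 0.39 in place of 0.38. With the replicate block 1 member was called up and 1 down, with 1942 genes up and 1848 down and 11 and 24 list genes, and TEK was the 1 endothelial gene called down. Comparisons of TWIST1, TWIST2 and CDH1 are limited by their few or absent counts.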

Other observations

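Genes that act on the EMT factors after transcription were also counted, on lists chosen with earlier results of these data known. Over all genes tested, 11.3% were called down and 11.8% up, and 17.2% and 16.1% by the adjusted p alone. Of 19 tested regulators of the stability of SNAI, TWIST and ZEB proteins, 6 were called down and 0 up by edgeR (7 and 0 by the adjusted p alone), with a median log2 fold change of -0.11. They were PSMD14, a deubiquitinase of the proteasome lid, from 214 ± 2.33 to 164 ± 9.10 CPM (-0.38, edgeR adjusted p = 7.5e-07), the deubiquitinases USP37 (-0.36) and USP1 (-0.27), the F-box genes BTRC (-0.27) and FBXO11 (-0.255), and the kinase gene PRKD1 (-0.29). Several of these lie near the fold threshold, and the count down was 2 with library size alone, 5 with upper-quartile scaling and 4 to 8 over the libraries left out. PRKD1 (-0.24) and FBXO11 (-0.22) were not called without TAK1 shRNA replicate 1, USP1 (-0.247) and BTRC (-0.24) without TAK1 shRNA replicate 2, and FBXO11 (-0.23) without scrambled replicate 3. PSMD14 and USP37 were called in all 14 alternatives of test, scaling, filter, pairing and libraries.

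Of 14 corepressor genes, all tested, 2 were called down, 1 up, and the median was -0.067. The shares over all genes tested were 11.3% down and 11.8% up. BMI1, a Polycomb component, fell from 28.996 ± 0.497 to 20.7 ± 0.575 CPM (log2 fold change -0.48, edgeR adjusted p = 9.67e-06). RCOR1, the CoREST subunit, was at -0.27 and lost its call without scrambled replicate 1 (-0.245) and with library size alone (-0.22). WTIP, a LIM protein, was at 0.33 and lost its call without scrambled replicate 3 (0.29) or TAK1 shRNA replicate 1 (0.18). None of these counts measures a protein.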
